A study of Mus musculus with 21 samples.

Results

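The genes of the cytosolic ribosome were followed through the first day of a T cell response in vivo. Members were taken by symbol: every gene named Rpl, Rps, Rplp or Rpsa in the usual nomenclature, with its lettered and -like variants, that was present in the normalised table. This gave 83 genes, 51 of the large subunit and 32 of the small subunit, out of 15249 genes in that table and 47643 in the count table. The symbols Rpl3l and Rpl10l fitted the same pattern but had 0 counts over all libraries, and Rps12l1 had 1, so they were not in the normalised table and were not analysed. Apart from presence in that table, which needs a few reads, the rule used names and no expression value. It was set with earlier results of these data known. In the GENCODE annotation 81 of the 83 are protein coding, and 2, Rpl6l and Rps4l, are processed pseudogenes.

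Libraries were 3′ mRNA sequencing libraries of sorted splenic CD4+ T cells. All 21 mice were of the Tg4 Tiger Nr4a3-Tocky strain. Tg4 is a T cell receptor transgene against a peptide of myelin basic protein, Tiger carries a GFP reporter at Il10, and Nr4a3-Tocky drives a fluorescent Timer protein, which matures from a blue to a red form, from Nr4a3 after receptor signalling. Controls were 3 mice of this strain without immunisation. The other 18 mice had received 0.8 or 80 µg of the [4Y] MBP peptide subcutaneously without adjuvant, with 3 mice for each dose at 4, 12 and 24 h. Cells with the blue but not the red Timer form were sorted at 4 h, those with both forms at 12 h and those with the red form alone at 24 h, and time and sorting gate therefore cannot be told apart. All receptors in these mice share 1 transgenic specificity, and the Timer gate selects responding cells. The 6 comparisons with control share the same 3 control libraries.

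The ribosome is built in the nucleolus from ribosomal RNA and roughly equal numbers of its proteins, and resting lymphocytes enlarge their translation machinery before they divide. Mammalian ribosomal protein mRNAs belong to the TOP class: they begin with a cytosine followed by an unbroken run of pyrimidines, and their translation depends strongly on mTORC1 signalling. Levels of these mRNAs are therefore only part of the control of ribosomal protein synthesis. Several positions of the ribosome can be filled by either of a pair of paralogues, a common and a variant form.

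Start site sequences are shown here because the run of pyrimidines at the start is the feature that defines TOP mRNAs. A RefSeq promoter sequence (GRCm38.p6) was matched for 61 of the 83 members. The window below is the 30 bases centred on the annotated start, 5′ to 3′ on the gene's strand, and capitals mark the part of the longest C or T run that lies in the window. Rpl7a and Rpl35 have long runs, Rps27, Rps24 and Rpl22l1 shorter ones, and Rpl41 and Rpl7l1 almost none, and for Rps27l the marked run of 9 bases lies mostly before the window, which holds another of that length in lower case. These members were picked because the results below turn on them, or, for Rpl7a, for its long run.
Rpl7a, chr2:26910792-26910821, plus strand: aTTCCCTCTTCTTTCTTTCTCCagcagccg
Rpl35, chr2:39005117-39005146, minus strand: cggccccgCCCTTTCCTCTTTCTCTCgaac
Rps27, chr3:90213634-90213663, minus strand: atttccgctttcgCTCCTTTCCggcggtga
Rps24, chr14:24490663-24490692, plus strand: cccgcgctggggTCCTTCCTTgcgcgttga
Rpl22l1, chr3:28805493-28805522, plus strand: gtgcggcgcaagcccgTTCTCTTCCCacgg
Rpl41, chr10:128549154-128549183, minus strand: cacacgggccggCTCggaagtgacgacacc
Rpl7l1, chr17:46782642-46782671, minus strand: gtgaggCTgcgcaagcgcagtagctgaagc
Rps27l, chr9:66946071-66946100, plus strand: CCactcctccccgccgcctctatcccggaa

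A C or T run of at least 8 bases touched the window in 29 of 61 members (47.5%) against 17.4% of all 27025 promoters, and a run of at least 10 in 34.4% against 8.77%. The letters CTTTCC stood in the same window on the gene's strand in 14.8% of members and 1.39% of all promoters. Within the 300 bases around the start, on either strand, CCGGAAG (letters of an ETS factor site) was found in 39.3% against 9.12%, GGGCGG in 60.7% against 35.9%, and ATGGCGG in 16.4% against 4.19%, while TATAAA on the gene's strand was found in 9.84% against 8.88%. The pyrimidine letters overlap with each other, and a match describes the annotated sequence only: the assay reads the 3′ end of the mRNA and does not show which start was used. The 83 genes were spread over 19 chromosomes, with at most 14 on any of them and 4 on X.

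Library totals ran from 2352800 to 6244279 counts. The 83 genes held 6.89 ± 0.375% of the counts in control libraries (SD, n = 3). Group means were lowest with 80 µg at 24 h, at 6.10 ± 0.160% (n = 3), and highest with 0.8 µg at 12 h, at 7.41 ± 0.798% (n = 3). The 0.8 µg 12 h libraries held 7.92, 7.81 and 6.49%, the last of these being replicate 3, which lay below all 3 mice of the 80 µg 12 h group (7.56, 7.03 and 7.20%). That library also had the largest share of the ribosomal RNA transcript Gm42418 in its group, at 25.7% against 17.0 and 18.2%; its part in the lower share was not tested. With Gm42418 and the mitochondrial ribosomal RNA genes left out of the total, the 3 libraries held 10.04, 10.04 and 9.28%. The order of group means depended on this choice. With those genes left out, control was highest (9.45, 10.40 and 9.84%) and 0.8 µg at 4 h lowest (8.26, 8.40 and 8.90%).

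The 10 CD4 T cell markers were detected in all groups, and their summed level was 4303 to 4534 CPM (counts scaled to a common library total) in control, 1938 to 2497 at 4 h, 1805 to 2357 at 12 h and 3573 to 4218 at 24 h. The 9 B cell markers summed to 405 to 472 CPM in control, 299.9 to 419.9 at 24 h and 37.7 to 127 at 4 and 12 h, with Ighm alone at 332 to 358 CPM in control and 21.6 to 64.1 at 4 and 12 h. Cd79a was at 0 in 3 groups and at most 3.83 CPM elsewhere. The 8 CD8 T and NK cell markers summed to 16.9 to 82.97, the 11 myeloid markers to 22.4 to 72.8 and the 6 erythroid markers to 5.31 to 213 CPM. The part of these RNAs in the changes of the ribosomal protein genes was not tested, and in such bulk samples fewer cells of a type and less RNA per cell cannot be told apart.

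The question addressed by the comparisons with control is which genes differ between unstimulated and responding T cells. Most ribosomal protein genes changed little and in both directions. After 0.8 µg peptide, the median shrunken log2 fold change of the members was 0.09 at 4 h, 0.18 at 12 h and 0.06 at 24 h, and after 80 µg it was 0.21, 0.20 and 0.17. The medians of all genes tested were -0.13, -0.11 and 0.00 for 0.8 µg and -0.15, -0.11 and 0.00 for 80 µg. In at least 1 of the 6 comparisons 69 of 83 members were called (DESeq2, Benjamini-Hochberg adjusted p below 0.05 over all genes), as were 76.2% of all genes. In all 6 comparisons 20 members were higher, beside 9.37% of all genes, and 7 were lower, beside 6.01%.

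Counts by comparison were as follows, with the share of all tested genes called in the same direction given for each. With 0.8 µg, 28 members were higher and 16 lower at 4 h, where 25.4% and 29.2% of all genes were called. At 12 h, 36 were higher and 15 lower (25.2% and 27.9% of all genes), and at 24 h 28 were higher and 15 lower (20.8% and 15.2%). With 80 µg, 37 were higher and 12 lower at 4 h (26.3% and 30.7%), 36 and 13 at 12 h (25.3% and 27.4%), and 32 and 13 at 24 h (22.1% and 16.9%).

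Large changes were rare. A shrunken log2 fold change above 1 in size was reached by 2 members at 4 h with either dose, both higher. At 12 h it was reached by 6 higher and 1 lower with 0.8 µg and by 5 higher and 1 lower with 80 µg. At 24 h 1 was higher and 1 lower with either dose. Of all genes, 17.3% rose and 23.4% fell by this rule with 0.8 µg at 4 h, 17.2% and 20.5% at 12 h and 11.5% and 5.84% at 24 h. The same shares with 80 µg were 18.4% and 25.1%, 17.8% and 20.1%, and 12.3% and 7.91%. The count with 0.8 µg at 4 h depended on the settings. Library totals in place of size factors gave 2 higher and 2 lower members past this fold. Totals that left out Gm42418 and mitochondrial ribosomal RNA gave 2 higher and 4 lower. Leaving out replicate 3 of that group gave 3 higher and 1 lower. Shares of all genes under these settings are not given.

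**Figure D1:**
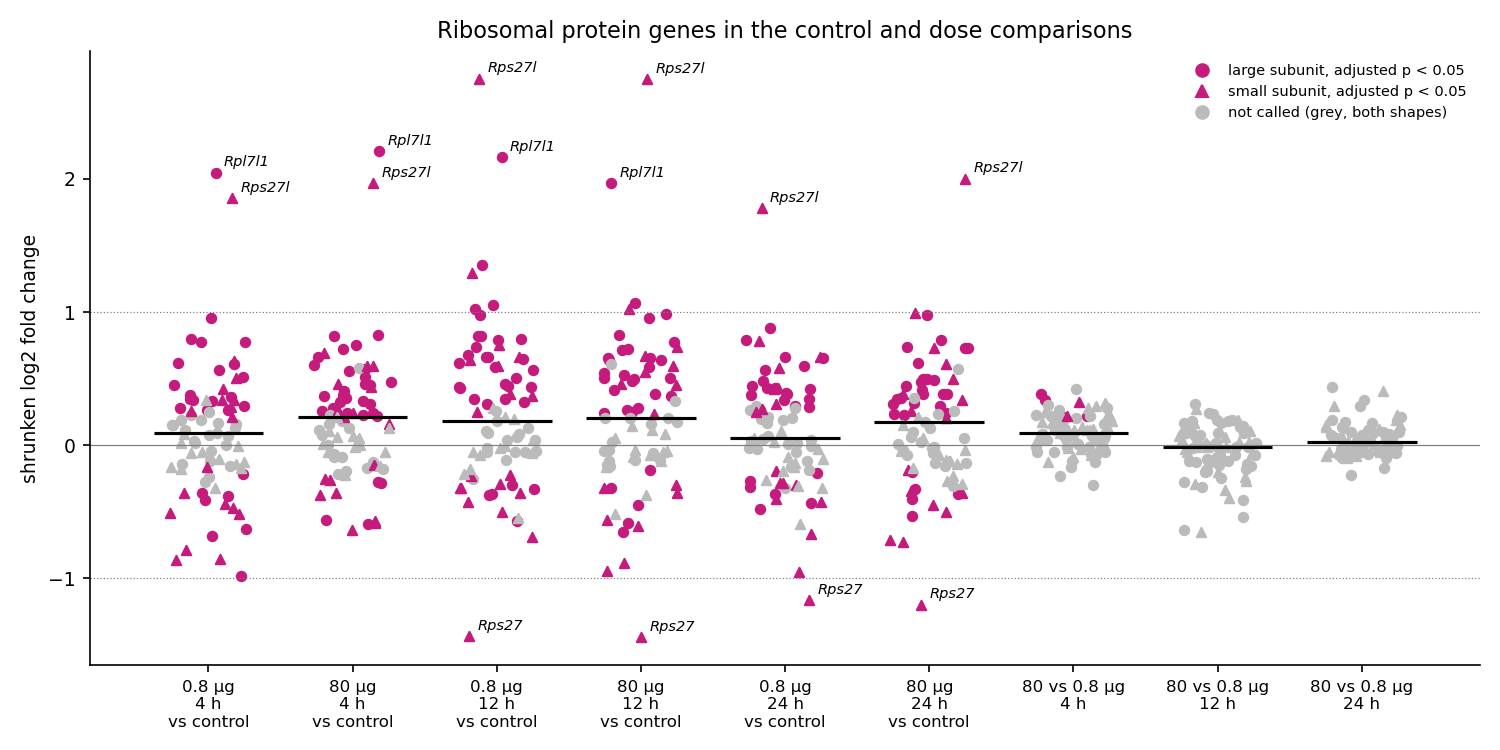
Shrunken log2 fold change of the 79 ribosomal protein genes averaging 20 or more normalised counts, in the 6 comparisons with control and the 3 comparisons of dose. Circles are large and triangles small subunit genes, coloured where adjusted p was below 0.05; bars mark the median of all members tested and dotted lines a log2 fold change of 1. At 12 h Rps27l and Rpl7l1 stand above the rest and Rps27 below them, and the dose comparisons stay near 0.

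The direction of the family as a whole depended on the scaling between libraries. With library totals in place of size factors, the member median against control turned to -0.04 at 4 h and -0.08 at 24 h after 0.8 µg and to -0.07 at 24 h after 80 µg. With library totals that left out Gm42418 and mitochondrial ribosomal RNA it was -0.14 and -0.04 at 4 and 24 h after 0.8 µg and -0.06 and 0.00 after 80 µg. At 12 h it was positive under all 4 scalings, between 0.06 and 0.19 after 0.8 µg and between 0.08 and 0.23 after 80 µg. The all-gene median shifted along with it, to between -0.41 and 0.01 over the 4 scalings in these 6 comparisons. Members called in the same direction under all 4 scalings numbered 9 higher and 15 lower at 4 h after 0.8 µg (21.4% and 29.5% of all genes), 31 and 14 at 12 h (22.8% and 27.3%) and 19 and 15 at 24 h (17.7% and 15.2%). After 80 µg they numbered 12 and 6 (21.4% and 30.1%), 31 and 12 (23.1% and 26.9%), and 12 and 12 (16.7% of all genes in each direction).

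Under all 4 scalings and in all 6 comparisons, 5 members rose (Rpl7, Rpl14, Rpl35, Rpl41 and Rps27l) and 4 fell (Rpl17, Rps21, Rps24 and Rps27), beside 6.61% and 5.8% of all genes. Rpl14, Rpl35, Rpl17 and Rps21 were named after their values were seen. Each of the 4 that fell lay between -0.36 and -1.44 except Rps24 with 80 µg at 4 h, at -0.26. Other members kept their calls under all 4 scalings in some of the comparisons, as given for those named below.

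A paralogue pair, Rps27 and Rps27l, moved in opposite directions. Both encode the zinc finger protein eS27 of the small subunit, and Rps27l is known as a target of p53. Rps27 (ENSMUSG00000090733, GRCm38 chr3:90212522-90213651, minus strand) had 5244, 5275 and 5513 normalised counts in the 3 control mice. At 4 h it had 2717, 3362 and 3180 with 0.8 µg and 3642, 3383 and 3787 with 80 µg. At 12 h it had 2037, 2245 and 1619 with 0.8 µg and 2257, 1734 and 1891 with 80 µg, and at 24 h 2155, 2303 and 2690 with 0.8 µg and 2383, 2323 and 2271 with 80 µg. Every immunised mouse lay below every control mouse.

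The shrunken log2 fold change of Rps27 against control was -0.79 ± 0.11 (SE) at 4 h, -1.44 ± 0.11 at 12 h and -1.16 ± 0.11 at 24 h after 0.8 µg (DESeq2 adjusted p = 6.48e-12, 1.17e-36 and 7.29e-24). After 80 µg it was -0.57, -1.44 and -1.20 (DESeq2 adjusted p = 1.10e-06, 4.27e-37 and 1.80e-25). It was the lowest member at 12 and 24 h with both doses. Reads of this gene can be shared with near copies: 53.3% of the 75-base stretches in the last 300 bases of its transcripts were also present in transcripts of other genes, Rps27rt among them. Rps27rt itself, counted separately at 44.3 ± 2.02 CPM in control (SD, n = 3), was at 17.1 ± 1.51 with 0.8 µg and 19.8 ± 1.46 with 80 µg at 12 h (n = 3 each).

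Rps27l (ENSMUSG00000036781, chr9:66946086-66949516, plus strand) had 139, 147 and 141 normalised counts in control. It had 532, 574 and 457 at 4 h, 982, 997 and 937 at 12 h and 551, 551 and 377 at 24 h after 0.8 µg. After 80 µg it had 588, 562 and 541 at 4 h, 890, 897 and 1129 at 12 h and 542, 553 and 631 at 24 h. No immunised mouse reached down to the control range, and all 6 mice at 12 h lay above those at the other times. The log2 fold change was 1.85, 2.75 and 1.78 after 0.8 µg and 1.97, 2.75 and 2.00 after 80 µg, each with an SE of 0.14 or 0.15 (DESeq2 adjusted p from 5.89e-79 to 7.91e-32). Only 8.82% of the stretches at its 3′ end were shared with another gene.

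The ratio of the pair does not depend on the scaling between libraries. Per 100 counts of Rps27, control mice had 2.56 to 2.79 counts of Rps27l. With 0.8 µg there were 14.4 to 19.6 at 4 h, 44.4 to 57.9 at 12 h and 14.01 to 25.6 at 24 h. With 80 µg there were 14.3 to 16.6, 39.4 to 59.7 and 22.8 to 27.8. The ratio, averaged on the log scale, thus rose 18.7-fold over control at 12 h with 0.8 µg and 18.6-fold with 80 µg. In an exact two-sided permutation test of 3 against 3 mice p = 0.1, the smallest this design allows, in each of the 6 comparisons with control (adjusted p = 0.212 over the 36 ratio comparisons made). Between doses, the ranges at 4, 12 and 24 h overlapped, and with 3 mice a group this test cannot show whether doses differ or are alike (exact permutation p = 0.4, 1 and 0.6).

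**Figure D2:**
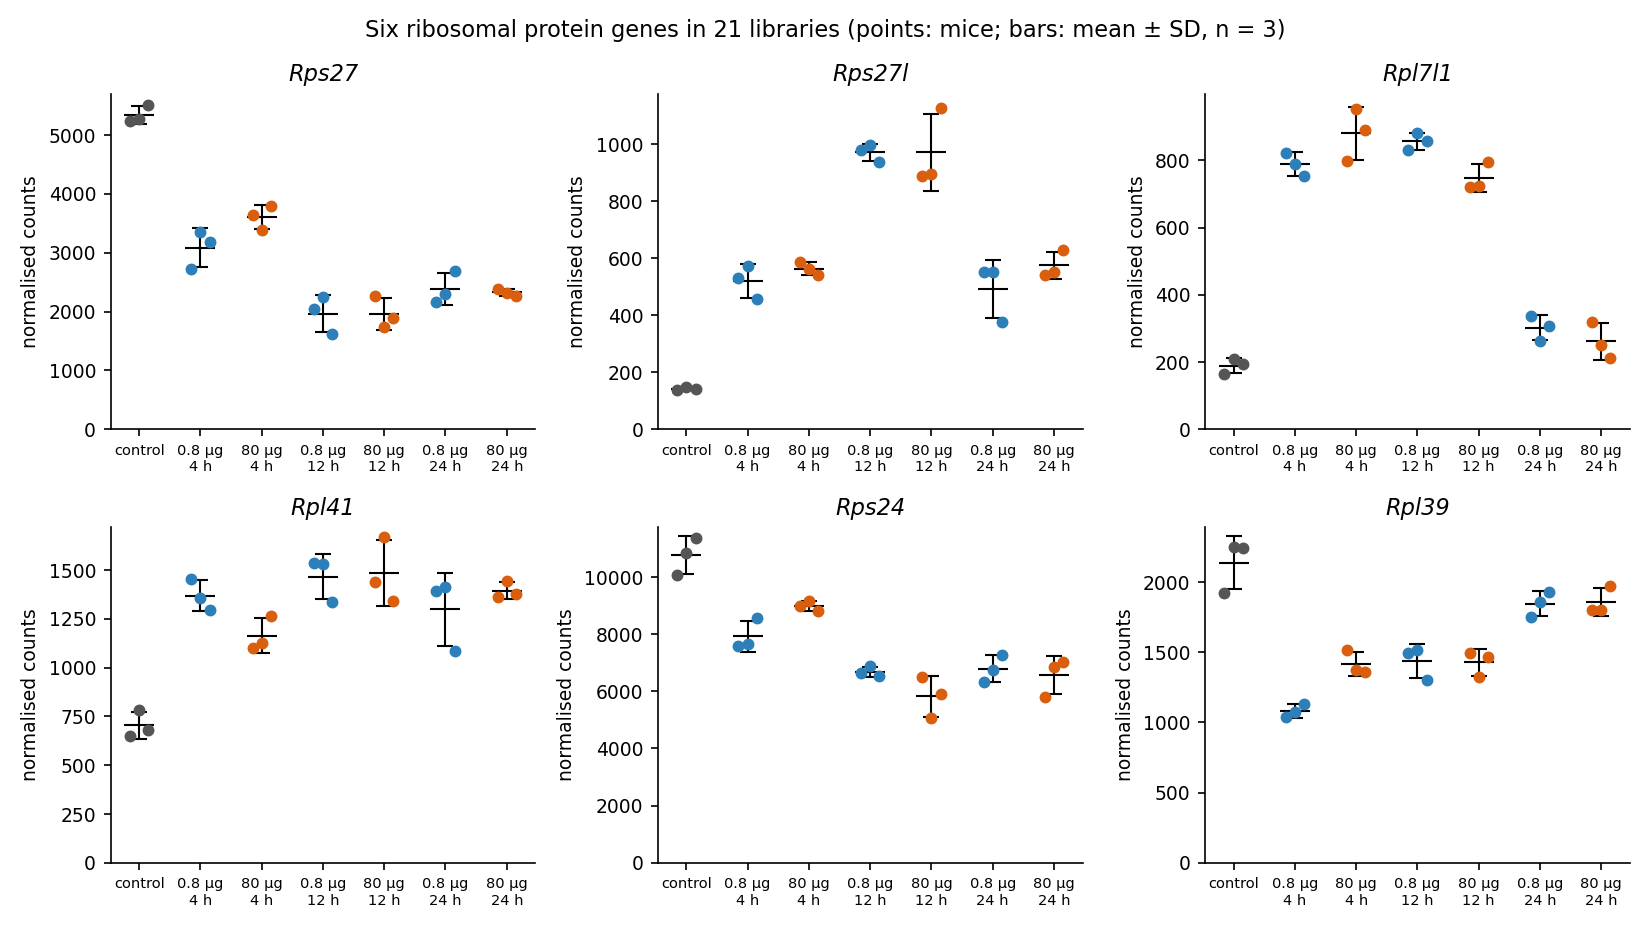
Normalised counts of 6 ribosomal protein genes in every library, by group (x axis: control, then 0.8 and 80 µg at 4, 12 and 24 h). Points are mice and bars the mean ± SD of 3. Rps27 and Rps24 lie lower in every immunised group than in control, Rps27l and Rpl41 higher, Rpl7l1 is highest at 4 and 12 h, and Rpl39 is lowest with 0.8 µg at 4 h.

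Rpl7l1, the variant of Rpl7 and the other member that rose more than 2-fold at both 4 and 12 h, had a different time course. Both encode proteins of the same family, and Rpl7 is the form of mature large subunits. Rpl7l1 (ENSMUSG00000063888, chr17:46773907-46782672, minus strand) had 165, 210 and 194 normalised counts in control. After 0.8 µg it had 823, 790 and 753 at 4 h, 829, 882 and 858 at 12 h and 336, 263 and 307 at 24 h. After 80 µg it had 798, 953 and 892, then 721, 724 and 794, then 320, 251 and 213. Values at 24 h were close to control, but did not overlap with it.

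The log2 fold change of Rpl7l1 was 2.05 ± 0.13 (SE), 2.17 ± 0.13 and 0.67 ± 0.14 after 0.8 µg and 2.21 ± 0.13, 1.97 ± 0.13 and 0.45 ± 0.14 after 80 µg at 4, 12 and 24 h (DESeq2 adjusted p = 4.36e-52, 9.51e-59, 9.43e-06, 4.01e-61, 1.47e-48 and 0.0043). From 12 to 24 h it fell by 1.5 with 0.8 µg and 1.52 with 80 µg. The 24 h call with 80 µg was not kept under all 4 scalings. None of its 3′ stretches was shared with another gene.

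Rpl7 itself rose less, by 0.57, 0.68 and 0.43 after 0.8 µg and 0.56, 0.65 and 0.49 after 80 µg, and 76.2% of its 3′ stretches were shared with other transcripts, mostly pseudogenes. Per 100 counts of Rpl7 there were 5.66 to 6.74 of Rpl7l1 in control, 15.8 to 20.7 at 4 h and 13.9 to 18.6 at 12 h over both doses. At 24 h, with 5.21 to 8.02, the groups overlapped with control.

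The remaining pairs kept closer to a fixed ratio. Rpl22, which binds RNA and is needed for αβ T cell development, rose in all 6 comparisons, by 0.36, 0.66 and 0.44 after 0.8 µg and 0.40, 0.59 and 0.42 after 80 µg (DESeq2 adjusted p from 2.73e-24 to 7.49e-08). Under all 4 scalings it was called at 12 h with both doses and at 24 h with 0.8 µg, and the other 3 calls were lost. Its variant Rpl22l1 had log2 fold changes of 0.34, 0.45 and 0.43 after 0.8 µg, all called, and of 0.60, 0.20 and 0.62 after 80 µg, of which that at 12 h was not. None of its calls was kept under all 4 scalings. Per 100 counts of Rpl22 there were 13.96 to 15.4 of Rpl22l1 in control and 8.60 to 19.2 in the other groups. Rpl36al rose at 4 h, by 0.62 with 0.8 µg and 0.82 with 80 µg, and at 12 h, by 0.46 and 0.64, and its partner Rpl36a was called only with 0.8 µg at 12 h, at 0.32. Of these calls, those of Rpl36al with 80 µg at 4 and 12 h were kept under all 4 scalings. Per 100 counts of Rpl36a, there were 5.502 to 9.86 of Rpl36al in control and 11.6 to 14.3 at 4 h, with no overlap, and 5.41 to 11.6 at 12 and 24 h. All 3′ stretches of Rpl36a and 64.0% of those of Rpl36al were shared with other genes, which leaves their split uncertain.

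**Figure D3:**
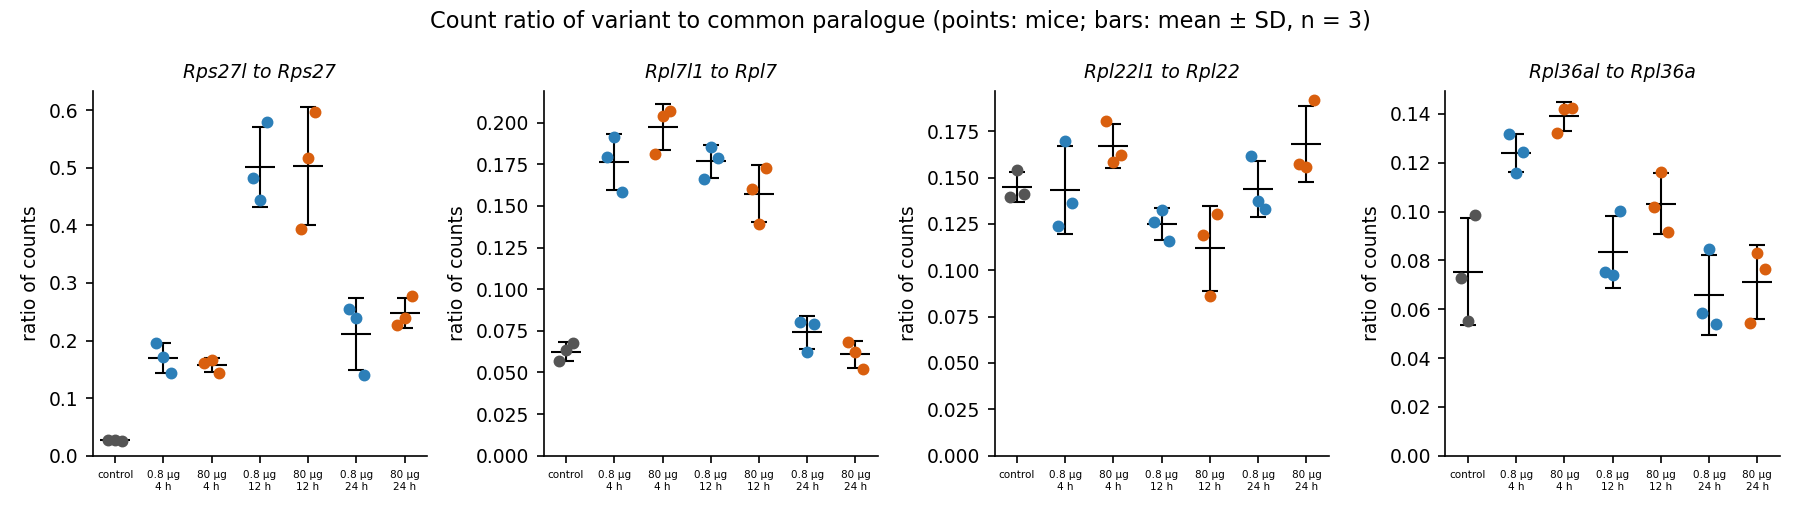
Counts of the variant paralogue divided by counts of the common one in every library, for 4 pairs (x axis: control, then 0.8 and 80 µg at 4, 12 and 24 h). Points are mice and bars the mean ± SD of 3. The ratio of Rps27l to Rps27 peaks at 12 h, and that of Rpl7l1 to Rpl7 is raised at 4 and 12 h and near control at 24 h. Rpl22l1 to Rpl22 lies between 0.086 and 0.192, below control at 12 h and above it with 80 µg at 4 and 24 h.

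Genes with few reads gave no usable values. Rpl39l had 0 to 13 reads per library and the annotated pseudogene Rps4l 0 to 13, and neither was called in any of these 6 comparisons. Rps4x, the common form on X, had a log2 fold change of -0.52 with 0.8 µg at 4 h and was called in no other comparison with control. Rpl3, at the peptidyl transferase centre, rose in all 6, by 0.24 to 0.50, and kept its calls under all 4 scalings at 12 h with both doses and at 24 h with 0.8 µg. Rpl10, which joins the large subunit late in its assembly, was called only with 0.8 µg at 12 h, at 0.74.

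The P stalk, the flexible arm of the large subunit that recruits elongation factors, had few calls. Rplp1, at 12318 ± 1585 normalised counts in control (SD, n = 3), was called in 1 comparison, at -0.19 with 80 µg at 12 h. Rplp2 was called in no comparison with control, with log2 fold changes from -0.18 to 0.07. Rplp0 was called in 2 comparisons, at 0.35 with 0.8 µg at 12 h and 0.36 with 80 µg at 24 h, and its groups overlapped with control in all 6 comparisons. The calls of Rplp1 and Rplp0 were not kept under all 4 scalings.

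Rpl5 and Rpl11, whose proteins together bind a small ribosomal RNA and Mdm2, differed in their calls against control. Rpl11 rose at 12 and 24 h with both doses, by 0.66, 0.38, 0.54 and 0.50, and at 4 h with 80 µg by 0.28, and its calls at 12 h were kept under all 4 scalings. Rpl5 fell by 0.41 at 4 h and 0.48 at 24 h after 0.8 µg and was not called at 12 h after 0.8 µg or after 80 µg, with log2 fold changes of -0.05 and of -0.19, -0.16 and -0.31. From 12 to 24 h with 0.8 µg both genes fell, under all 4 scalings. The difference between the 2 genes was not tested.

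Rps19, Rps14 and Rps6 are known from anaemias and, for Rps6, as the S6 kinase substrate. Rps19 fell at 12 h, by 0.32 with 0.8 µg and 0.30 with 80 µg, and Rps14 fell at 24 h, by 0.28 and 0.36. Rps6, with 109 ± 8.38 normalised counts in control (SD, n = 3), was called in no comparison with control. It ranged from 40.4 to 125 among the 3 mice given 0.8 µg at 4 h, and 81.4% of its 3′ stretches were shared with pseudogenes, to which its reads may be lost. The ubiquitin fusion gene Rps27a was likewise not called, with log2 fold changes from -0.32 to 0.21.

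Of the large subunit genes, Rpl41, which encodes the shortest protein of the ribosome, rose in all 6 comparisons by similar amounts. It had 650, 782 and 682 normalised counts in control, 1455, 1358 and 1296 with 0.8 µg and 1100, 1127 and 1267 with 80 µg at 4 h, and 1335 to 1670 in the 6 mice at 12 h. Every immunised mouse was above every control mouse. The log2 fold change was 0.95, 1.05 and 0.88 after 0.8 µg and 0.72, 1.07 and 0.98 after 80 µg, each ± 0.11 (SE; DESeq2 adjusted p from 1.35e-21 to 2.65e-10). The near copy Gm10076 held 46.6% of its 3′ stretches.

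Rpl15, with 61.6 ± 11.5 normalised counts in control (SD, n = 3), had 157 ± 38.4 with 0.8 µg at 12 h, a log2 fold change of 1.35 ± 0.24 (SE; DESeq2 adjusted p = 1.39e-07), and between 0.72 and 0.83 in the other 5 comparisons. Rpl4 rose in 5 comparisons, by 0.37 to 0.51, and was at 0.16 with 0.8 µg at 4 h, where it was not called. Rpl8 rose at 4 h with both doses, by 0.38 and 0.45, and at 12 h with 80 µg by 0.28. Rpl10a rose at 4 h with both doses and at 12 h with 0.8 µg, by 0.46 to 0.65, and Rpl38 with 80 µg at 4 and 12 h, by 0.24 and 0.25. Rpl13a fell in 3 comparisons, by 0.28 to 0.35. Under another scaling every call of Rpl8 and Rpl38 was lost, as were those of Rpl10a at 4 h, Rpl4 with 80 µg at 4 h, and Rpl15 at 4 h with both doses and at 24 h with 80 µg.

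Rpl39 and Rpl30 fell instead. Rpl39, a small protein of the exit tunnel, had 1921, 2252 and 2243 normalised counts in control and 1037, 1076 and 1134 with 0.8 µg at 4 h, a log2 fold change of -0.98 ± 0.09 (SE; DESeq2 adjusted p = 1.02e-28). With 80 µg at 4 h it had 1513, 1374 and 1360, at -0.59. Its values were -0.57 and -0.58 at 12 h, then -0.21 and -0.20 at 24 h, where the groups overlapped with control. Only 2.65% of its 3′ stretches were shared. Rpl30 was at -0.63, -0.37 and -0.43 after 0.8 µg and -0.29, -0.45 and -0.37 after 80 µg. The calls of Rpl30 with 80 µg at 4 h and of Rpl39 with 80 µg at 24 h were lost under another scaling.

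Rps24, of the small subunit, had 10067 to 11385 normalised counts in control, 7593 to 9150 at 4 h, 5055 to 6879 at 12 h and 5795 to 7289 at 24 h over both doses, with no overlap with control. Its log2 fold change was -0.44, -0.69 and -0.66 after 0.8 µg and -0.26, -0.89 and -0.71 after 80 µg, each ± 0.09 (SE; DESeq2 adjusted p from 1.40e-22 to 0.00668). Rps29 fell in 5 comparisons, by 0.25 to 0.61. Rps16 fell in 5, by 0.58 to 0.95, and Rps23 at 4 h only, by 0.85 and 0.64, but with SEs of 0.26 and 0.28. The calls of both genes with 80 µg at 4 h were lost when either of control replicates 2 and 3 was left out, with log2 fold changes of -0.57 and -0.49 for Rps16 and -0.71 and -0.42 for Rps23. These calls, and that of Rps29 with 80 µg at 4 h, were also lost under another scaling.

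Rps25, used by viral internal ribosome entry sites, rose in all 6 comparisons, by 0.39 to 0.69, and Rpsa, the laminin receptor protein at the ribosome's surface, by 0.21 to 0.50. The call of Rps25 with 80 µg at 24 h and those of Rpsa at 4 h were lost under another scaling. Rps3, a protein of the mRNA entry channel, was called lower with 0.8 µg at 4 and 12 h, at -0.16 and -0.23, and higher with 80 µg at 4 h, at 0.16. Of these calls that at 12 h was kept under all 4 scalings, and both at 4 h were lost. Rps2 had 1412, 1424 and 1555 normalised counts in control, 4095, 4543 and 2245 with 0.8 µg at 12 h and 3728, 2250 and 3019 with 80 µg at 12 h. Its log2 fold change at 12 h was 1.29 ± 0.22 and 1.02 ± 0.23 (SE; DESeq2 adjusted p = 4.21e-08 and 1.93e-05), and it was above all controls in each mouse at 12 and 24 h. The lower values at 12 h were those of the libraries with the largest Gm42418 shares of their groups, 25.7% for replicate 3 of 0.8 µg and 24.5% for replicate 2 of 80 µg, and the part of this was not tested.

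Spread among mice differed between members. Over the 79 members averaging 20 or more normalised counts in every group, the median coefficient of variation within groups was 7.13%, from 3.36% for Rpsa and 3.4% for Rpl22 to 21% for Rpl10 and 21.7% for Rps23. It was 5.96% in the 19 members with at most 10% of 3′ stretches shared with another gene and 8.66% in the 29 with more than 50%. The same 2 sets had median log2 fold changes of 0.04 and 0.45 with 0.8 µg at 12 h and 0.14 and 0.39 with 80 µg at 12 h, and of 0.25 and 0.19 with 0.8 µg at 24 h. The part of shared sequence in these values was not tested. Because of it, levels of members are set against each other only as ratios followed across groups. Its part in those ratios was not tested either. In the GENCODE annotation an exon of a gene on the opposite strand overlaps 19 members, among them Rpl5, Rpl10a, Rpl15, Rpl22l1, Rpl30, Rpl32, Rpl35, Rps2, Rps25 and Rps27a, and the strand setting of the counts is not given in the sources used here.

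By subunit, with 0.8 µg at 12 h 27 of 51 large subunit genes were higher and 5 lower, and 9 of 32 small subunit genes were higher and 10 lower (25.2% and 27.9% of all genes). With 80 µg at 12 h these were 27 and 5, and 9 and 8 (25.3% and 27.4%). The difference between subunits in these counts was not tested. The ratio of all large to all small subunit counts, which again needs no scaling, was 0.971, 1.00 and 0.984 in the control mice. With 0.8 µg it was 1.10 to 1.15 at 4 h, 1.20 to 1.24 at 12 h and 1.11 to 1.18 at 24 h, and with 80 µg it was 1.08 to 1.11, 1.21 to 1.25 and 1.14 to 1.18. Every immunised mouse was above the controls, and every mouse at 12 h above all mice at 4 and 24 h. Without Rps27 and Rps24 the ratio was 1.13 to 1.15 in control and 1.21 to 1.35 in the other groups, and without members that share more than 50% of 3′ stretches it was 0.660 to 0.661 and 0.726 to 0.881.

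**Figure D4:**
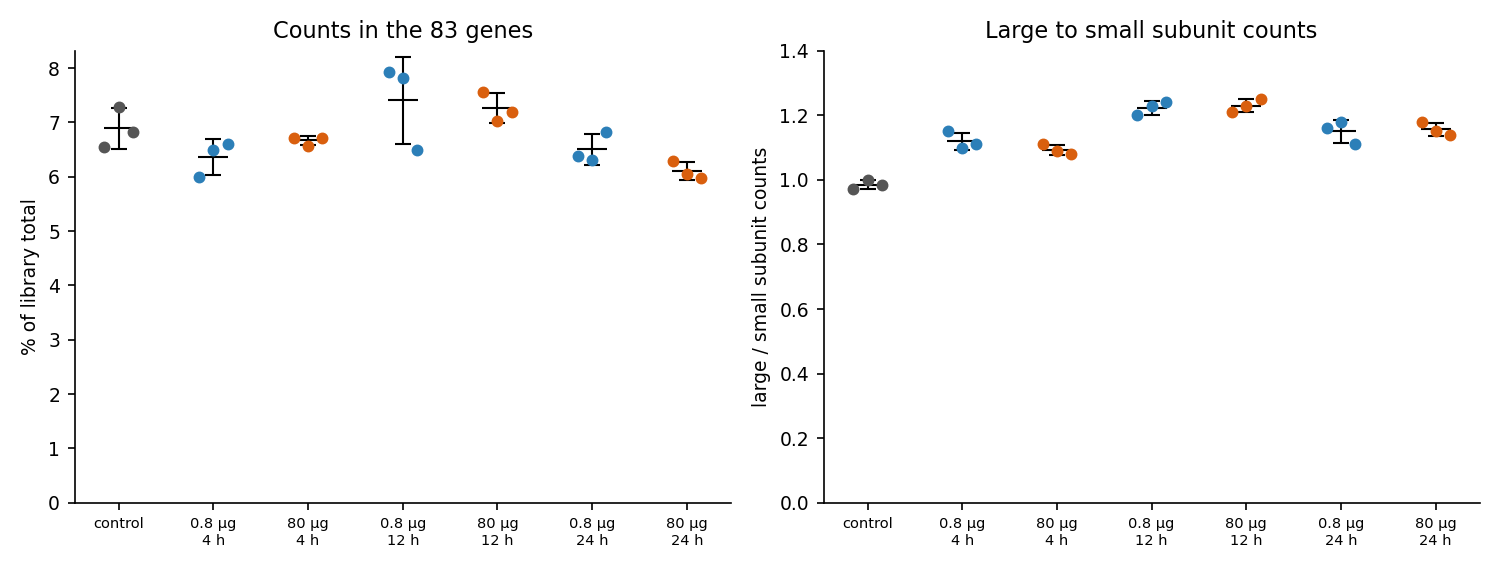
Left, percent of each library's counts held by the 83 ribosomal protein genes; right, counts of large subunit genes divided by counts of small subunit genes (x axis: control, then 0.8 and 80 µg at 4, 12 and 24 h). Points are mice and bars the mean ± SD of 3. Shares lie between 5.97 and 7.92%, with 80 µg at 24 h below control and the other groups overlapping with control, while the subunit ratio is 0.971 to 1.00 in control and 1.08 to 1.25 in immunised mice. Which group stands apart in share depends on the total. Without ribosomal RNA in it, both 4 h groups (8.26 to 8.90%) lie below control (9.45 to 10.40%). The 80 µg 24 h group (8.87 to 9.60%) then overlaps with control.

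Comparisons of 80 with 0.8 µg asked whether peptide dose changes these genes at a given time. At 4 h 6 members were higher with 80 µg and none lower, of 81 tested (5.81% of all genes were called higher and 6.19% lower). They were Rpl39 (0.39), Rpl30 (0.34), Rps3 (0.32), Rpl4, Rpl32 and Rps15a (0.22 each), and none of the 6 passed a log2 fold change of 1 (3.12% of all genes did so upward and 2.74% downward). Rpl39 and Rps3 (DESeq2 adjusted p = 0.000194 and 6.96e-05) were called under all 17 analyses of this comparison, main analysis included. The other 4 were called in 11 or 12. The count fell to 2 or 3 without replicate 1 or 2 of 0.8 µg at 4 h or without replicate 1 of 80 µg at 4 h. The member median was 0.09, beside -0.02 over all genes tested.

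At 12 h none of 82 members and at 24 h none of 80 was called by DESeq2 (3.67% and 2.6% of all genes were called higher and lower at 12 h, 3.73% and 2.2% at 24 h). No called member could thus pass a log2 fold change of 1, as 1.83% and 0.96% of all genes did upward and downward at 12 h and 0.89% and 0.673% at 24 h. At an unadjusted p below 0.05 there were 14 members at 12 h and 3 at 24 h, beside 13% and 12.1% of all genes. With edgeR's quasi-likelihood test 0 passed at both times, with 15 and 3 at an unadjusted p below 0.05 (14.5% and 14.2% of all genes), and 3 passed at 4 h. Leaving out replicate 3 of 0.8 µg at 12 h gave 7 called members at 12 h, of which 5 were lower with 80 µg. The share of all genes called in that fit is not given, so this count is not read as a result about the members.

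Confidence intervals bound what remains. Of the 79 members averaging 20 or more normalised counts, the 95% interval of the unshrunken difference between doses lay within a log2 fold change of 1 in either direction for 79 at 4 h, 77 at 12 h and 79 at 24 h. It lay within 0.5 for 62, 65 and 71. For Rps27 the interval at 12 h ran from -0.23 to 0.21, for Rps27l from -0.25 to 0.25 and for Rpl7l1 from -0.43 to 0.03. Rps6 had the lowest value, -0.65, with an interval from -1.20 to -0.14 and DESeq2 adjusted p = 0.139.

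Over time, more members rose than fell between 4 and 12 h with 0.8 µg, 23 against 6 (20.9% of all genes rose and 18.2% fell), while with 80 µg 12 rose and 10 fell (23.6% and 19.3%). The balance with 80 µg depended on the scaling. With totals that left out ribosomal RNA 33 rose and 3 fell. The share of all genes called under that scaling is not given, so these counts are not read as a result about the members. Under all 4 scalings 12 rose and 3 fell with 80 µg (23.6% and 15% of all genes). With 0.8 µg 23 rose and 1 fell under all 4 scalings. The share of all genes is not given here either, so these counts are likewise not read as a result about the members. Between 12 and 24 h 6 rose and 24 fell with 0.8 µg (24.9% and 19.1%), and 4 rose and 18 fell with 80 µg (24.9% and 19.8%). Under all 4 scalings 1 rose and 21 fell over this step with 0.8 µg (21.3% and 18.5% of all genes), and 0 rose and 18 fell with 80 µg (20.1% and 19.8%). Without replicate 1 or 2 of 0.8 µg at 12 h, 4 rose and 15 fell with that dose, and without replicate 2 of 80 µg at 12 h, 5 rose and 8 fell. Rps27 fell by 0.65 and 0.88 and Rps27l rose by 0.90 and 0.78 between 4 and 12 h, and from 12 to 24 h Rps27l fell by 0.97 and 0.75. Rps27 rose by 0.27 over that step with 0.8 µg, a change called in 11 of 17 analyses, with values from 0.14 to 0.38 and a highest adjusted p of 0.475 (DESeq2 or edgeR). Rpl39 rose again from 12 to 24 h, by 0.36 and 0.38, and both calls were lost under another scaling. Past a log2 fold change of 1 there was no called member from 4 to 12 h with either dose (12.6% of all genes higher and 7.98% lower with 0.8 µg, 15.7% and 9.1% with 80 µg). With 0.8 µg, library totals gave 4 higher, totals without ribosomal RNA 3 higher, and leaving out 1 mouse 0 to 3. Shares of all genes under these settings are not given. In the main analysis there was 1 lower past this fold from 12 to 24 h with 0.8 µg, Rpl7l1 (17.1% of all genes higher and 9.48% lower), and 2 lower with 80 µg (16.7% and 10.5%), Rpl7l1 and Rpl24. Rpl24 fell by 1.04, from between 25.7 and 33.8 normalised counts to between 7.36 and 19.7. Its adjusted p was 0.0499 (DESeq2), it was called in 9 of 17 analyses with a highest adjusted p of 0.227 (DESeq2 or edgeR), and an exon of Gm28037 overlaps it on the same strand.

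Whether the time course of a member differed between doses was asked with a likelihood ratio test over the 18 immunised mice. Of 80 members tested, 1 passed, Rpl39 (DESeq2 adjusted p = 0.0156), beside 10.4% of all genes. Its dose difference was 0.39 at 4 h and was not called at 12 or 24 h. The call was lost with library totals (adjusted p = 0.0589, DESeq2) and when replicate 1 or 2 of 0.8 µg at 4 h or replicate 1 of 80 µg at 4 h was left out (DESeq2 adjusted p = 0.0876, 0.0523 and 0.105). Without replicate 3 of 0.8 µg at 12 h, 5 members passed.

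Other gene lists of protein synthesis are given beside the ribosomal proteins, with no test between lists. Assembly factors, which process ribosomal RNA and build the subunits in the nucleolus, had a median log2 fold change of 2.52 and 2.71 at 4 h, 2.30 and 2.16 at 12 h and 0.49 and 0.34 at 24 h with 0.8 and 80 µg. Of their 65 genes, 62 and 63 were higher at 4 h and none lower (25.4% and 26.3% of all genes were higher), and 36 and 30 were higher at 24 h (20.8% and 22.1%) with 4 and 5 lower (15.2% and 16.9%). Rrp1b, a nucleolar protein of ribosomal RNA processing, went from 208 ± 6.06 to 2865 ± 26.9 normalised counts with 0.8 µg at 4 h (SD, n = 3), and Npm1 from 1408 ± 49.7 to 10080 ± 85.3.

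The 77 proteins of the mitochondrial ribosome had medians of 0.98 and 1.12 at 4 h, 1.41 and 1.41 at 12 h and 0.79 and 0.87 at 24 h. At 12 h 72 of them were higher with either dose (25.2% and 25.3% of all genes), among them Mrpl12, at 3.09 with 0.8 µg and 3.08 with 80 µg. The 62 translation factors had medians of 1.05 and 1.25, 1.41 and 1.31, and 0.61 and 0.54. Eif5a, which relieves stalled ribosomes, rose by 3.24 and 3.47 at 4 h, while Eif4e3, a cap binding protein, fell by 4.23 and 4.55.

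Other genes held to have TOP mRNAs, 24 in number, had medians of 0.57 and 0.60 at 4 h, 0.65 and 0.59 at 12 h and 0.45 and 0.53 at 24 h, above the ribosomal proteins in each comparison. Tpt1, a growth related TOP mRNA, was the lowest of them in all 6, from -0.49 to -1.59. The 19 genes of mTORC1 and TOP mRNA regulation had medians of 0.63 and 0.45 at 4 h, 0.35 and 0.36 at 12 h and 0.08 and 0.03 at 24 h. At 24 h the ribosomal proteins had 0.06 and 0.17. The 29 members with a C or T run of at least 8 bases at the start site had a higher median than the 30 with a shorter run in each of the 6 comparisons, which share their controls. The medians were 0.16 and 0.05 at 4 h, 0.35 and 0.13 at 12 h and 0.20 and 0.00 at 24 h with 0.8 µg, and 0.24 and 0.13, 0.25 and 0.11, and 0.24 and 0.04 with 80 µg. The spread within each set was wider than these differences, with quartiles of -0.05 and 0.64 for the longer and -0.06 and 0.61 for the shorter runs with 0.8 µg at 12 h, and the difference was not tested. Rps27 and Rps24, which fell, both have runs of 9 bases at the start, as shown above.

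**Figure D5:**
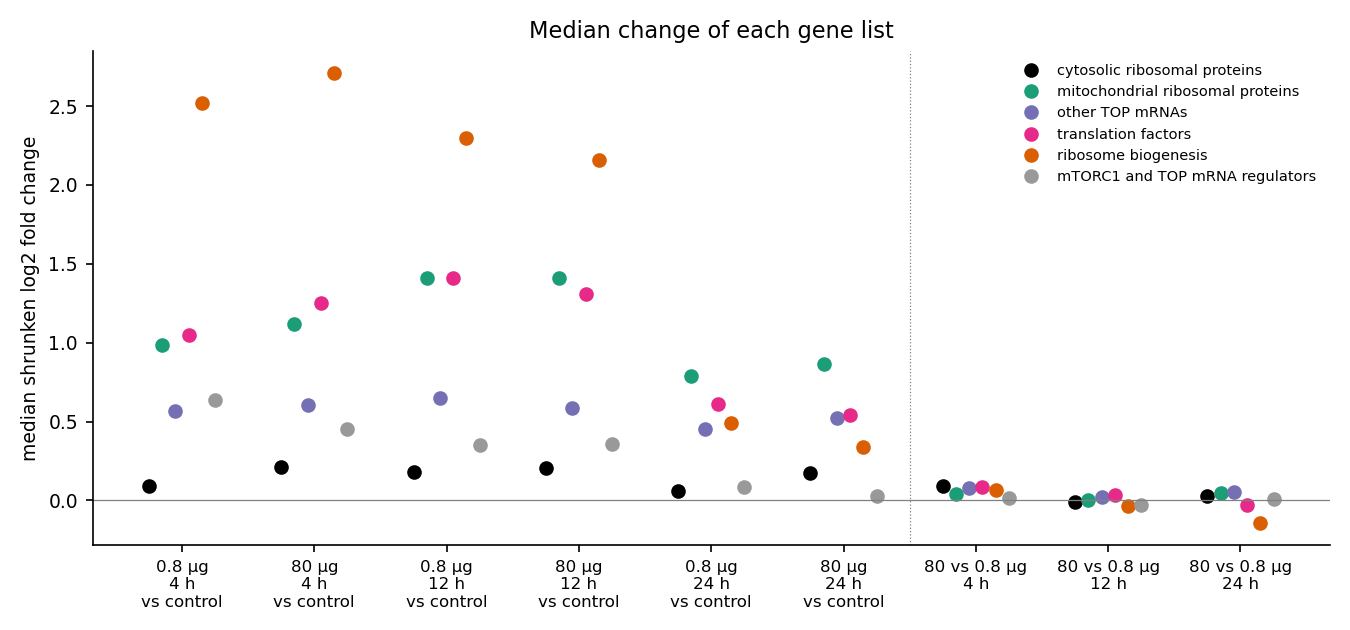
Median shrunken log2 fold change of the cytosolic ribosomal protein genes (black) and of 5 other gene lists in the 6 comparisons with control and the 3 comparisons of dose. Each point is the median over the tested genes of a list, with no error, since genes are not replicates. Ribosome assembly factors reach 2.71 with 80 µg at 4 h, where the cytosolic ribosomal proteins are at 0.21.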

How the data were processed

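Splenic CD4+ T cells of 21 mice were profiled with forward QuantSeq 3′ mRNA libraries, 3 mice in each of 7 groups given by the labels, and each library was treated as 1 mouse. The authors trimmed reads with Bbduk, aligned them to GRCm38 (mm10) with STAR 2.5.2a and deposited raw read counts per gene from HTSeq. They also deposited log2 values made by the rlog transformation of DESeq2 after removing genes with fewer than 10 reads over all samples. The annotation release, the strand setting and the treatment of reads with several matches are not given in the sources used here, and a gene with near copies may lose reads or share them.

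The deposited log2 table was used only to decide which members were present. All tests used the counts of genes with at least 10 reads over all samples. DESeq2 1.42.0 in R 4.3.3 was fitted to all 7 groups together, with its size factors, and fold changes were shrunken with its normal prior. Standard errors belong to these shrunken values. A gene was called at a Benjamini-Hochberg adjusted p below 0.05 over all genes, and counted as a large change where its shrunken log2 fold change also passed 1 in size. Dose-by-time interaction was tested by a likelihood ratio test over the 18 immunised mice. Normalised counts are counts divided by the DESeq2 size factors. edgeR 4.0.16, TMM factors, library totals, other filters, fits on the compared groups only, a replicate block and leaving out each replicate were alternatives. Library totals without Gm42418 and mitochondrial ribosomal RNA, and shares without the most counted members, were added after seeing the data. The tests were run on simulated data first. Ratios of counts were compared by exact two-sided permutation tests (SciPy 1.17.1), and intervals are at 95%. Intervals and tests cover the spread between mice only as far as each library is a separate animal.

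Members, gene lists and the paralogue pairs were chosen with earlier results of these data known. Named members were those with a set role in the ribosome, the 3 highest and 3 lowest called members averaging 20 or more normalised counts in each comparison of doses and with control, and those past the fold threshold against the majority. Genes of other lists were named as the most raised or lowered called gene of a list. For shared sequence, 75-base stretches of the last 300 bases of each gene's coding transcripts were searched in the transcripts of all other genes of the GENCODE vM21 annotation.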

Additional observations from a re-analysis of the deposited data

Results flagged for a closer look

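The dose effect on Rpl39 differed between time points: the dose-by-time term of the DESeq2 likelihood ratio test over 18 mice had an adjusted p of 0.0156, and Rpl39 was the only one of 80 members tested to pass. The gene was higher with 80 than with 0.8 µg at 4 h, by 0.39 on the log2 scale, and all 3 mice given 80 µg at 4 h lay above the 3 given 0.8 µg. Over leave-one-out analyses and other settings the adjusted p of this term ran from 0.00203 to 0.105.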

How the results depend on the processing

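Among the values of the 3 highest and 3 lowest called members of each comparison, 39 in all, recomputed 624 times, 600 kept their direction and their side of the threshold, 24 kept the direction only and 0 reversed. The 24 were those of Rpl30 between doses at 4 h, Rps23 at 4 h, Rpl15 with 0.8 µg at 24 h and 80 µg at 4 h, and Rps16 with 80 µg at 4 and 24 h. The cause was not tested for these or for the changes below.

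Between doses at 4 h, 3 members were called with edgeR and 11 when only the compared groups were fitted, and at 24 h 1 was called with library totals and 1 with the compared groups only. With library totals the member median was -0.077 between doses at 24 h. Against control it was then -0.076 with 0.8 µg at 24 h, 0.059 with 80 µg at 4 h and -0.067 with 80 µg at 24 h. Between times it was 0.26 from 4 to 12 h and -0.26 from 12 to 24 h with 0.8 µg, and 0.16 and -0.27 with 80 µg. With library totals that left out Gm42418 and mitochondrial ribosomal RNA, chosen after seeing the data, the median was -0.14 with 0.8 µg at 4 h and -0.063, 0.077 and 0.0016 with 80 µg at 4, 12 and 24 h against control, and 0.18 from 4 to 12 h with 80 µg. Fitting only the compared groups gave -0.15 from 12 to 24 h with 80 µg. Members called from 4 to 12 h with 80 µg were 36 (33 higher and 3 lower) with the totals that left out ribosomal RNA, and from 12 to 24 h 39 (0 higher and 39 lower) with library totals. Under all 4 scalings 0 were higher and 18 lower over that last step (20.1% and 19.8% of all genes). Shares of all genes are not given for single alternative settings, so their counts show only how far the member counts moved. Past a log2 fold change of 1, library totals gave 4 members with 0.8 µg at 4 h against control, 4 from 4 to 12 h and 2 from 12 to 24 h with that dose, and totals without ribosomal RNA gave 6, 3 and 1. edgeR gave 4 with 80 µg at 24 h, and fitting only the compared groups gave 2 from 12 to 24 h with 0.8 µg. From 12 to 24 h with 80 µg the count was 1 with size factors that left out the members and 1 with no filter on low counts. Library totals gave 3 members with a dose-by-time interaction. Without ribosomal RNA in the total, the mean share of counts in members was 9.20% with 80 µg at 24 h and 9.79% with 0.8 µg at 12 h. The order of groups changed as well. The lowest mean was then that of 0.8 µg at 4 h (8.26, 8.40 and 8.90%) and the highest that of control (9.45, 10.40 and 9.84%). With ribosomal RNA in the total, the lowest group mean was 5.79, 5.84 and 5.89% without Rplp1, Rps20 or Rpl23a.

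The labels do not say whether a replicate number marks mice handled together. Deviations of same-numbered libraries had correlations from -0.204 to 0.211 (median -0.0138), and other pairs from -0.263 to 0.224 (median -0.00357). Correlations above 0.1 were seen in 12 of 63 same-numbered and 16 of 126 other pairs. On average, 9 of 21 libraries correlated best with those of their own number. These values cannot show whether the numbers pair the mice. With the replicate as a block, the members past a log2 fold change of 1 from 12 to 24 h with 80 µg were 1 in place of 2, and the other counts stayed within 1.5 times.

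Leaving out 1 mouse at a time gave 2 to 7 called members between doses at 4 h, 0 to 7 at 12 h and 0 to 1 at 24 h. At 12 h there were 7 without replicate 3 of 0.8 µg, 3 without replicate 1 of 80 µg and 1 without its replicate 3. It gave 19 to 37 from 12 to 24 h with 0.8 µg, the lowest without replicate 1 or 2 at 12 h, and 13 to 24 with 80 µg, the lowest (5 higher and 8 lower) without replicate 2 at 12 h. Members past a log2 fold change of 1 ranged from 2 to 4 with 0.8 µg at 4 h, 0 to 3 from 4 to 12 h and 1 to 2 from 12 to 24 h with 0.8 µg, and 1 to 2 from 12 to 24 h with 80 µg. Members with a dose-by-time interaction ranged from 0 to 5. Where an arm kept 2 mice, the other groups helped set its spread. Shares of all genes called are not given for fits that left out a mouse, so these counts show only how far the member counts moved. With 3 mice a group and no more than 6244279 counts a library, low members such as Rpl24, Rpl39l and Rps4l had too few reads for small changes to be detectable.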
